A study of Mus musculus with 3 samples.

Results

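The chemokine and interleukin genes of the mouse intestine, with the interleukin receptors, were taken as every gene in the deposited table whose symbol begins with Ccl, Cxcl or Il followed by a digit. That gave 118 of 21983 genes. They comprised 36 chemokine ligands (23 of the CC and 13 of the CXC type), 39 interleukin ligands, 41 interleukin receptor chains and 2 further genes, the binding protein gene Il18bp and the enzyme gene Il4i1. Receptors of chemokines carry other symbols and were described apart.

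Chemokines are small secreted proteins that bind heparan sulfate and draw leukocytes through G protein-coupled receptors, and the CC and CXC types are named for the spacing of their first cysteines. Interleukins signal through paired receptor chains. Most of these chains couple to JAK kinases and STAT factors, whereas the IL-1 and IL-17 receptor families feed into NF-kB. In the gut, the epithelium itself makes several of these ligands and carries receptors for IL-22, IL-17 and IL-18, by which lymphocytes instruct barrier defence.

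Total RNA of mouse pup intestine was sequenced as 1 library for each of 3 groups, all wild type by their labels and taken at 96 h. The PCI34051+NEC pups underwent an induced form of necrotizing enterocolitis (NEC), a gut disease of newborns with inflammation and tissue death, and were fed the HDAC8 inhibitor PCI34051 on 5 days at a daily 10 mg/kg. The NEC pups went through the same model with PBS, namely gavage of 40 µl of 33% Esbilac formula every 4 h, with hypoxia (99.9% nitrogen, 100 s) and then cold (4 °C, 10 min) every 12 h. The control pups were fed by their dam, received PBS, and had neither hypoxia nor cold, so that feeding, hypoxia and cold cannot be told apart in a comparison with them. The labels do not state pup age or sex, nor how many pups made up each library.

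Totals were 16497580 counts for PCI34051+NEC, 10650638 for NEC and 15076413 for control. With 1 library per group no difference has a replicate check and no p-value is given, and what follows is a description of single libraries rather than of conditions. Levels are TMM-normalised counts scaled to library size (CPM). A log2 fold compares log2(CPM + 1), a gene was measured in a comparison at 1 CPM or more in either library, and it was counted as higher or lower at 2-fold on that scale. Ratios are plain CPM ratios with 95% intervals that cover counting error only. The NEC library stood apart: mitochondrially encoded genes took 3.73% of counts in PCI34051+NEC, 32.4% in NEC and 4.88% in control. Counts of the Y-linked gene Eif2s3y were 1134, 0 and 999 in PCI34051+NEC, NEC and control, and Il2rg and Il13ra1 are X-linked members. Intestinal epithelium markers were present in all libraries, with 9 of 9 above 0 counts and summed levels of 12344 CPM in PCI34051+NEC, 5169 CPM in NEC and 8456 CPM in control. The 7 smooth muscle markers, Myh11 and Acta2 among them, summed to 1471, 11473 and 1539 CPM in the same order.

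Of the 118 genes, 53 stayed below 1 CPM in all 3 libraries, a share of 44.9% against 33.0% of all genes. They were 20 of 36 chemokine ligands, 21 of 39 interleukin ligands, 11 of 41 receptor chains and Il4i1. Among them 25 had no count in any library, which allows up to 0.197 CPM in PCI34051+NEC, 0.274 CPM in NEC and 0.189 CPM in control. The 14 undetected interleukin ligands included Il17a, Il22, Il12b, Il2, Il9 and Il21, products of lymphocytes and myeloid cells. The others were Il3, Il31, Il20, Il24 and the IL-1 family genes Il1f5, Il1f6, Il1f9 and Il1f10. The neutrophil attractants Cxcl2 and Cxcl3 and the monocyte attractants Ccl2, Ccl3, Ccl4, Ccl7 and Ccl8 had at most 3 counts in any library. Ccl21a, Ccl21b, Ccl27b and Il11ra2, at 0 throughout, have near-identical copies in the mouse genome, so their counts are uncertain. The members closest to the 1 CPM line were Il10, Il27 and Il23a with 11 counts in NEC and Cxcl9 with 16 counts in control, just above it, and Cxcl17 and Il12a with 10 counts in NEC, just below.

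Summed over all members of each class, receptor chains had more CPM than either ligand class, in sums that are not corrected for transcript length. Receptor chains summed to 785 CPM in PCI34051+NEC, 820 CPM in NEC and 860 CPM in control, of which Il4ra alone held 266, 119 and 310 CPM. Chemokine ligands summed to 240, 175 and 170 CPM, and interleukin ligands to 93.7, 92.0 and 153 CPM in the same order of libraries. Per kilobase of exon, the most abundant member of the control library was Il17d at 82.1 CPM per kb. Il10rb (76.7 CPM per kb) and Il4ra (59.0 CPM per kb) followed. Ccl25 led in PCI34051+NEC at 78.6 CPM per kb and in NEC at 51.9 CPM per kb, where Il17rc, at 35.9 CPM per kb, came next.

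In NEC against control, members differed in both directions. Of 63 measured members, 19 were higher by 2-fold or more (30.2%, against 24.2% of 14627 measured genes) and 16 were lower (25.4%, against 22.9%). Together these were 55.6% of the members, against a background of 47.1%. The counting interval of the ratio lay wholly beyond 2-fold for 20 members above and 9 below, where 39.1% of genes passed that rule (20.8% above and 18.3% below). The median log2 fold was 0.24 for the members and -0.03 for all genes. Among chemokine ligands 4 were higher and 4 lower of 16, and among interleukin ligands 7 were higher and 3 lower of 16. Among receptor chains 8 were higher and 9 lower of 30. The median of the interleukin ligands was 0.96, and 0.75 once a floor of 3 counts replaced each 0. A total of 8 of them reached 1 CPM in the NEC library alone, at 11 to 33 counts. Such genes had to be higher there, so this median cannot be read as a property of interleukins. Of all members, 11 reached 1 CPM in NEC alone, and 4 in control alone had to be lower in NEC. Ccl11, Ccl9 and Il1r2 likewise passed the filter of this comparison through NEC only, and Ccl24, Cxcl13 and Il7r through control only. The counts and the median of all members carry the same limit. Among all genes, 1066 reached 1 CPM in the NEC library alone, against 91 in PCI34051+NEC alone and 308 in control alone.

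In PCI34051+NEC against NEC, 9 of 61 measured members were higher by 2-fold or more (14.8%, a smaller share than the 3597 of 14410 genes that were higher) and 19 were lower (31.1%, against 25.6%). Together these were 45.9% of the members, against a background of 50.6% of 14410 genes. The counting interval lay beyond 2-fold for 8 members above and 18 below, where 42.9% of genes passed (20.8% above and 22.1% below). The members' median log2 fold was -0.67, against 0.01 for all genes. The 11 members that reached 1 CPM in NEC alone had to be lower here. The 2 that reached it in PCI34051+NEC alone had to be higher. Il15ra, Il17re, Il27ra and Il2rg also passed here through NEC only, and Ccl24, Cxcl13 and Il7r through PCI34051+NEC only. The share of lower members and this median therefore cannot be read as properties of the members. With a minimum of 5 CPM, 8 of 31 members were higher and 9 lower, where 29.0% of 11699 genes were higher and 23.9% lower. The members' median was then above 0, at 0.15, and that of all genes was 0.20. In PCI34051+NEC against control, 6 of 54 measured members were higher by 2-fold or more (11.1%, against 6.55% of 13652 genes) and 11 were lower (20.4%, against 6.55%). Together these were 31.5% of the members, against a background of 13.1%. The counting interval lay beyond 2-fold for 3 members above and 9 below, where 9.88% of genes passed (5.11% above and 4.77% below). The median log2 fold was -0.37 for members and -0.0008 for all genes. The 4 members that reached 1 CPM in control alone had to be lower here, and the 2 in PCI34051+NEC alone higher. Il15ra, Il17re, Il27ra and Il2rg also passed here through control only, and Ccl11, Ccl9 and Il1r2 through PCI34051+NEC only. The member shares and median of this comparison carry that limit. Scaled by total counts, 4 members were higher and 14 lower, and 4.65% of all genes were then higher and 9.23% lower. The NEC library enters the first 2 comparisons and the control library the first and the last, so the 3 are not independent.

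**Figure D1:**
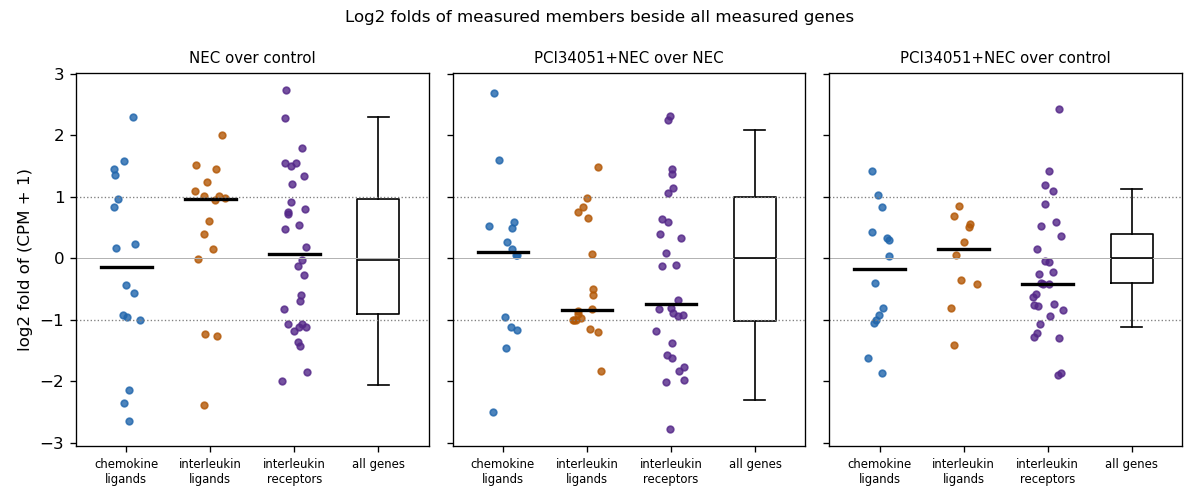
Log2 folds of (CPM + 1) for measured members, 1 point per gene, in the 3 comparisons, with the class median as a black bar. The box for all genes spans the 25th to 75th percentile and its whiskers the 5th to 95th. The median of interleukin ligands is 0.96 in NEC over control and -0.85 in PCI34051+NEC over NEC. The 8 interleukin ligands that reached 1 CPM in NEC alone had to be higher there, which bears on both medians.

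Among CC chemokine ligands, Ccl25 had the highest level in every library. Ccl25, which draws CCR9-bearing lymphocytes to the small intestine (ENSMUSG00000023235, mm10 chromosome 8, 4325210 to 4360020, plus strand; 56 of its exonic bases overlap Elavl1 on the other strand), stood at 122 CPM in PCI34051+NEC, 80.7 CPM in NEC and 44.9 CPM in control. It was the lowest in the dam-fed library, and PCI34051+NEC was 2.72-fold above control (2.49 to 2.97). NEC was 1.80-fold above control (1.63 to 1.99). Ccl6, a myeloid chemokine known from rodents, had 168, 99 and 126 counts in PCI34051+NEC, NEC and control, with levels all within 2-fold. Ccl28 and Ccl20, mucosal ligands of CCR10 and CCR6, were at 1.32 to 3.08 CPM in every library and within 2-fold in every comparison.

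Ccl24, or eotaxin-2, an eosinophil attractant (chromosome 5, 135569937 to 135573049, minus strand), was low in NEC alone. It had 163 counts in PCI34051+NEC, 9 in NEC and 166 in control, or 10.7, 0.822 and 10.4 CPM. NEC was 12.7-fold below control (6.53 to 28.3), and PCI34051+NEC was 13.0-fold above NEC (6.70 to 29.0). Ccl11, or eotaxin-1, ran the other way at low counts, with 16, 38 and 10 counts in PCI34051+NEC, NEC and control. NEC was 5.52-fold above control (2.70 to 12.4) for this gene. Both eotaxin genes thus had NEC at one end of the order, Ccl24 at the low end and Ccl11 at the high end.

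Ccl27a and Ccl9 were highest in NEC. Ccl27a, a ligand of CCR10 known from skin (chromosome 4, 41769467 to 41774247, minus strand), was at 3.74 CPM in PCI34051+NEC, 25.8 CPM in NEC and 7.99 CPM in control. Its 3′ end shares 8 exonic bases with Il11ra1 on the opposite strand. NEC was 3.23-fold above control (2.61 to 4.02), and PCI34051+NEC was 6.90-fold below NEC (5.18 to 9.34). Ccl9, a rodent CCR1 ligand next to Ccl6 on chromosome 11, had 27, 73 and 9 counts in PCI34051+NEC, NEC and control. Its NEC level was 11.8-fold above control (5.87 to 26.8). Ccl17, a ligand of CCR4, had 2, 13 and 2 counts, and its NEC level was 9.43-fold above control (2.14 to 86.1).

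**Figure D2:**
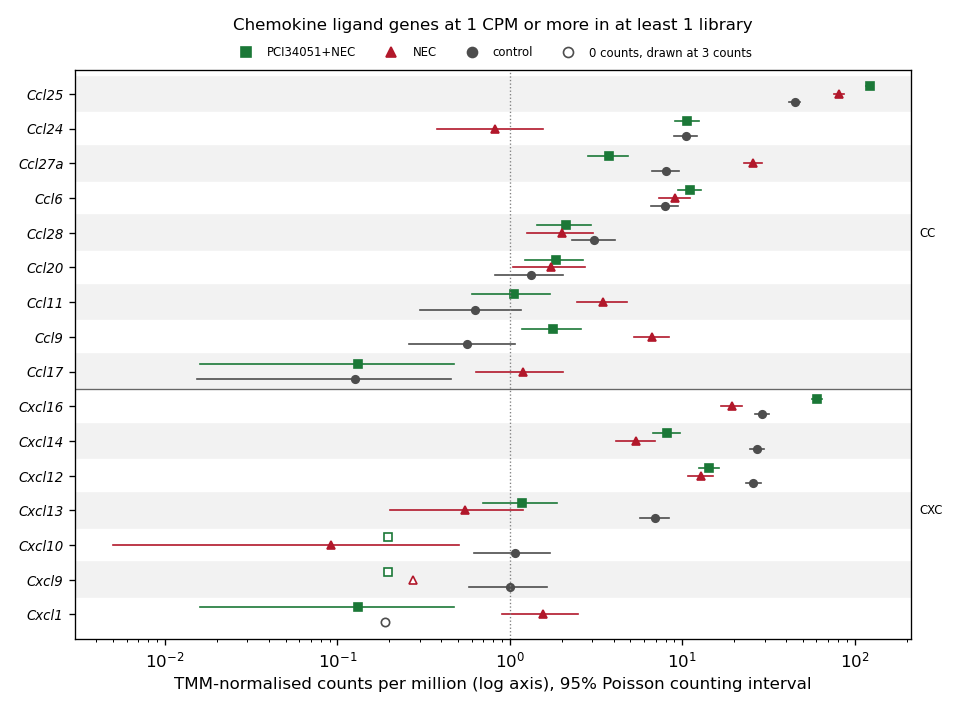
Levels of the 16 chemokine ligand genes at 1 CPM or more in at least 1 library, in TMM-normalised CPM on a log axis, with 95% Poisson counting intervals. Open symbols mark 0 counts, drawn at 3 counts. Ccl24 stands lowest in NEC, at 0.822 CPM, while Cxcl14 and Cxcl13 stand highest in control, at 27.1 and 6.92 CPM.

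Of the 7 CXC ligands that reached 1 CPM, 5 were at their highest level in the dam-fed library. Of all genes at 1 CPM or more in any library, 27.2% were highest there. Cxcl9 and Cxcl10 reached 1 CPM in that library alone, so these ligands had to be highest in it. Cxcl14, an epithelial and stromal chemokine (ENSMUSG00000021508, chromosome 13, 56288643 to 56296551, minus strand), was at 8.15 CPM in PCI34051+NEC, 5.39 CPM in NEC and 27.1 CPM in control. NEC was 5.03-fold below control (3.83 to 6.72) and PCI34051+NEC was 3.33-fold below it (2.72 to 4.10). Cxcl13, which draws CXCR5-bearing B cells into lymphoid follicles, had 18, 6 and 110 counts in PCI34051+NEC, NEC and control. Its NEC level was 12.6-fold below control (5.62 to 35.2), and the PCI34051+NEC level 5.85-fold below (3.54 to 10.2). Cxcl12, the stromal ligand of CXCR4, was at 14.3, 12.8 and 25.8 CPM, and neither formula-fed library was 2-fold apart from control on the log2(CPM + 1) scale. In these bulk samples, fewer cells of a type and less RNA per cell cannot be told apart.

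Cxcl9 and Cxcl10, interferon-induced ligands of CXCR3 that lie side by side on chromosome 5, were detected almost only in control. Cxcl9 had 0, 0 and 16 counts in PCI34051+NEC, NEC and control. With 3 counts as the floor of the library at 0, NEC was 3.67-fold and PCI34051+NEC 5.11-fold lower. These floor folds leave out counting error in the control library and are not lower limits. Cxcl10 had 0, 1 and 17 counts. By the same floor PCI34051+NEC was 5.43-fold lower than control, and the NEC level was 11.7-fold lower (1.84 to 489). The interferon response list moved with them: 11 of its 13 genes lay 2-fold or more below control in PCI34051+NEC, and 11 of 13 did so in NEC. That was 84.6% each time, against 6.55% of all genes in PCI34051+NEC and 22.9% in NEC. Summed levels of that list were 190, 76.5 and 977 CPM in PCI34051+NEC, NEC and control, Mx1 was at 0 counts in NEC, and the part of this response in the Cxcl9 and Cxcl10 values was not tested.

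Cxcl16 and Cxcl1 followed other orders. Cxcl16, a transmembrane ligand of CXCR6 (chromosome 11, 70453983 to 70459984, minus strand), was at 60.4 CPM in PCI34051+NEC, 19.4 CPM in NEC and 29.1 CPM in control. PCI34051+NEC was 3.12-fold above NEC (2.69 to 3.64) and 2.07-fold above control (1.85 to 2.32). Scaled by total counts, the ratio to control was 1.82. The exons of Cxcl16 share 20.5% of their length with Zmynd15 on the opposite strand, and the strand setting of the counts is not given. Cxcl1, a neutrophil attractant induced by NF-kB, had 2, 17 and 0 counts in PCI34051+NEC, NEC and control. With control at the floor of 3 counts, NEC was 8.23-fold above it, counting error in NEC left out. The neutrophil list was low everywhere, with summed levels of 4.01, 5.30 and 2.14 CPM over 8 genes, and 3 and 4 of the genes were at 0 in PCI34051+NEC and control.

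Promoter sequences are shown for ligands whose levels set the dam-fed library or the NEC library apart, so that the letters of interferon and NF-kB motifs can be read in them. RefSeq windows on GRCm38.p6, from 250 bases before to 50 bases after a start, matched 90 of the 118 genes in 111 windows. Searched on both strands were the interferon-stimulated response element (GAAA, any 2 bases, GAAA), the STAT site TTCNNNGAA, the core of the glucocorticoid response element ACANNNTGT, and the NF-kB consensus. Capitals mark matches to any of these, and a match is a description of letters, not a site in use.
Cxcl9 (chr5:92328030-92328329, minus strand): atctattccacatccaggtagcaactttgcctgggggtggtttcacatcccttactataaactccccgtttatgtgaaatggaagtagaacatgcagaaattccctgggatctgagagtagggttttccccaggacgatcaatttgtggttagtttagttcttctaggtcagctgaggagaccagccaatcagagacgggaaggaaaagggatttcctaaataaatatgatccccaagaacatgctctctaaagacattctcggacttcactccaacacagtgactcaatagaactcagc
Cxcl10 (chr5:92348840-92349139, minus strand): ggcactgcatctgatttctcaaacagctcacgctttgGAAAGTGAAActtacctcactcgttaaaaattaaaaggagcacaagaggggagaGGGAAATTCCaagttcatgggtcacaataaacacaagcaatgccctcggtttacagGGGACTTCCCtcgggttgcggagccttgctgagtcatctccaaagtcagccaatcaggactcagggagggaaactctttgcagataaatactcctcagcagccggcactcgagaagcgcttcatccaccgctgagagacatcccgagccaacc
Cxcl14 (chr13:56296502-56296801, minus strand): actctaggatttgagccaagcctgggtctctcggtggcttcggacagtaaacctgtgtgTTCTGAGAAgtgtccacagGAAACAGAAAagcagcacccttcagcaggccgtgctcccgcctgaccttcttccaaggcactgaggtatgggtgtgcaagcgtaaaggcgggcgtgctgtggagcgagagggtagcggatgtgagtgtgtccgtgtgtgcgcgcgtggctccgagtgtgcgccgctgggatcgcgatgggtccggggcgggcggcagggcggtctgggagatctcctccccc
Il17d (chr14:57524579-57524878, plus strand): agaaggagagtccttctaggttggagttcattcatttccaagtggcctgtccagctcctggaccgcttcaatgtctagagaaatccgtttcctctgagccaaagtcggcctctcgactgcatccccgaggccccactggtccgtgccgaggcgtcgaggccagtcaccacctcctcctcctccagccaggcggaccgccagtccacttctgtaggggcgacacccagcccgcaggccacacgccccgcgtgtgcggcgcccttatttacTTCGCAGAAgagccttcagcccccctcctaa
Cxcl1 (chr5:90890995-90891294, plus strand): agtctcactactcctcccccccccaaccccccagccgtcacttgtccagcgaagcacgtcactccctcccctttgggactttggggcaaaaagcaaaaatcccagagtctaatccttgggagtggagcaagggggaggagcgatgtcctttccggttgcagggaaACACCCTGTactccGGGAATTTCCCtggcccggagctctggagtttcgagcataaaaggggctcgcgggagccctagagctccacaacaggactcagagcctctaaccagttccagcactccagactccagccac
Il6 (chr5:30012864-30013163, plus strand): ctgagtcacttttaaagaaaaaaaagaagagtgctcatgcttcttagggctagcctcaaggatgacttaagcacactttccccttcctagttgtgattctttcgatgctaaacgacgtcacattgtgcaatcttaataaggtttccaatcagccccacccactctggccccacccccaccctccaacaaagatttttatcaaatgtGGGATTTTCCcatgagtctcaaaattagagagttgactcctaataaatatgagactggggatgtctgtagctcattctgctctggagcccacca
Il19 (chr1:130940066-130940365, minus strand): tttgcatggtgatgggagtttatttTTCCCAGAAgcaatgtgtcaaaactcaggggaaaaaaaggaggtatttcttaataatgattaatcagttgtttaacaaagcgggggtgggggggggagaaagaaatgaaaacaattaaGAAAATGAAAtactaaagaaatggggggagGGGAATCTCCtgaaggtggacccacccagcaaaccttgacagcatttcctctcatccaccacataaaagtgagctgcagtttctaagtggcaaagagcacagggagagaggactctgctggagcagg

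In the Cxcl10 window, the response element match begins 213 bases before the start and NF-kB matches begin 159 and 103 bases before it. Cxcl14 holds a response element match from 172 bases and a STAT match from 191 bases before its start. Neither motif was found in the Cxcl9 window, nor in that of Cxcl13, which is not shown. The Il19 window, of a gene highest in NEC, also holds a response element match, from 107 bases before the start. Its STAT match begins 225 bases and its NF-kB match 77 bases before the start. These letters alone say nothing of the factors. The overlapping pair of NF-kB matches in Cxcl1 begins 71 and 70 bases before the start, and the match in Il6 begins 44 bases before. NF-kB matches were in 7 of 31 chemokine ligand windows, 22.6%, against 4.51% of all 32851 promoter windows. For interleukin ligands the NF-kB share was 7.89% of 38 windows, and for receptors 10.0% of 40. Response element matches were in 9.68% of chemokine ligand windows and 3.44% of all windows.

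Of the chemokines named outside these symbols, Cx3cl1, a membrane-bound ligand for macrophages and lymphocytes bearing CX3CR1, was the most abundant. It was at 120 CPM in PCI34051+NEC, 23.7 CPM in NEC and 284 CPM in control. NEC was 12.0-fold below control (10.6 to 13.6), and PCI34051+NEC 2.37-fold below (2.25 to 2.50). Pf4, a platelet chemokine, was at 2.69, 10.6 and 1.82 CPM in PCI34051+NEC, NEC and control.

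Among chemokine receptor genes, several of leukocytes were lower in NEC than in control, and those of the atypical receptors Ackr1 and Ackr4 were higher. Of 23 receptors, 16 were measured in NEC against control, where 9 lay 2-fold or more below control (56.3%, against 22.9% of all genes) and 2 above (12.5%, against 24.2%). Of 16 measured in PCI34051+NEC against control, 6 lay below control by that measure (37.5%, against 6.55% of all genes) and none above. Cx3cr1, on tissue macrophages, was at 1.38, 1.92 and 6.04 CPM in PCI34051+NEC, NEC and control. Cxcr4, widespread on leukocytes, was at 1.45, 4.02 and 5.98 CPM. Cxcr5, the receptor of Cxcl13, had 3, 0 and 44 counts. Ackr4, which takes up CCL19, CCL21 and CCL25, was at 5.45 CPM in PCI34051+NEC, 43.3 CPM in NEC and 2.96 CPM in control, and NEC was 14.6-fold above control (10.8 to 20.2). Ackr1, the venular chemokine receptor, was at 1.12, 12.4 and 1.13 CPM.

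Leukocyte marker lists also differed between the libraries. B and plasma cell genes summed to 0.854, 1.19 and 44.3 CPM in PCI34051+NEC, NEC and control over 6 genes. All 5 measured genes lay 2-fold or more below control in both model libraries. Of all genes, 22.9% did so in NEC and 6.55% in PCI34051+NEC. In NEC, Cd79b, Ms4a1, Jchain and Mzb1 were at 0 counts, and Jchain and Mzb1 were also at 0 in PCI34051+NEC. T and innate lymphoid genes, 9 in the table and Il7r among them, summed to 181, 121 and 277 CPM. In NEC against control 6 of the 9 were 2-fold or more lower (66.7%, against 22.9% of all genes) and Thy1 was higher. Cd3d, Cd3g and Cd8a were at 0 in NEC, and Cd3d in PCI34051+NEC. Macrophage and dendritic cell genes summed to 218, 148 and 501 CPM over 11 genes, none of them at 0. Most of that sum was Csf1r, at 160, 58.8 and 406 CPM. In NEC against control, 4 of the 11 were 2-fold or more lower (36.4%, against 22.9% of all genes). Cd163, Itgam and Mrc1 were higher (27.3%, against 24.2%). Cd163, a scavenger receptor of macrophages, was at 4.99, 24.5 and 0.440 CPM. The part of these cells in the chemokine and receptor values was not tested.

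Among interleukin ligands, Il17d stood out by level and by difference. IL-17D is a less studied member of the IL-17 family that is made by epithelial and other non-immune cells. Il17d (ENSMUSG00000050222, chromosome 14, 57524777 to 57543166, plus strand) had 589 counts in PCI34051+NEC, 210 in NEC and 1662 in control, or 38.7, 19.2 and 105 CPM. NEC was 5.45-fold below control (4.72 to 6.32), and PCI34051+NEC was 2.70-fold below it (2.46 to 2.97). PCI34051+NEC lay 2.02-fold above NEC (1.72 to 2.37), a log2 fold of 0.98. Control was thus the highest and NEC the lowest, with counting intervals that did not overlap. The window shown above holds a single match, to the STAT motif, 19 bases after the start.

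The IL-1 family ligands went different ways. Il18, an epithelial cytokine matured by caspase-1 (chromosome 9, 50554827 to 50581840, plus strand), stood at 19.0 CPM in PCI34051+NEC, 6.12 CPM in NEC and 15.7 CPM in control. NEC was 2.56-fold below control (1.95 to 3.41), and PCI34051+NEC was 3.10-fold above NEC (2.37 to 4.11). Il33, a nuclear alarmin of stromal and endothelial cells, was at 5.98, 11.4 and 3.33 CPM in PCI34051+NEC, NEC and control. Its NEC level was 3.42-fold above control (2.46 to 4.81). The inflammatory cytokine genes Il1a and Il1b stayed low: Il1a had 26, 31 and 39 counts, and Il1b 27, 7 and 15 counts. The receptor antagonist gene Il1rn had 26 counts in PCI34051+NEC and 8 in each of NEC and control. On the log2(CPM + 1) scale Il1a, Il1b and Il1rn were within 2-fold wherever measured. The gene of the secreted IL-18 inhibitor, Il18bp, was at 1.84, 3.84 and 4.09 CPM.

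Il15, Il7, Il34 and Il16 were detected in every library. Il15, which sustains intraepithelial lymphocytes and natural killer cells, was at 10.7 CPM in PCI34051+NEC, 20.9 CPM in NEC and 6.98 CPM in control, and NEC was 2.99-fold above control (2.38 to 3.79). Il7, an epithelial and stromal lymphocyte growth factor, was at 4.34, 4.11 and 4.15 CPM, which differ by less than their counting intervals. Il34, a second ligand of the macrophage growth factor receptor CSF1R, was at 4.53, 2.10 and 6.42 CPM, and NEC was 3.06-fold below control (1.93 to 5.04). Il16, a lymphocyte attractant, was at 3.28, 8.86 and 6.54 CPM, and PCI34051+NEC was 2.70-fold below NEC (1.90 to 3.87). Its exons share 22.5% of their length with Stard5 on the opposite strand.

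A further group had its highest counts in NEC, at low depth. Il19, an IL-10 family cytokine of epithelium and macrophages, had 2 counts in PCI34051+NEC, 33 in NEC and 0 in control, and PCI34051+NEC was 22.9-fold below NEC (5.87 to 197). Il6, the inflammatory and acute phase cytokine, had 1, 15 and 0 counts, and NEC was at least 7.26-fold above control. Il10, the neighbour of Il19 on chromosome 1, had 0, 11 and 0 counts, as did Il27. Il17b had 2, 14 and 1 counts, Il17c, an epithelial cytokine, had 1, 12 and 1, and Il11 had 10, 22 and 9. Below 1 CPM, Cxcl17 had 0, 10 and 0 counts, Il17f had 2, 7 and 0, and Il13 had 0, 7 and 0. None of these had more than 33 counts. The 1066 genes that reached 1 CPM in NEC alone stand beside them, and the part of that wider pattern in these counts was not tested.

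**Figure D3:**
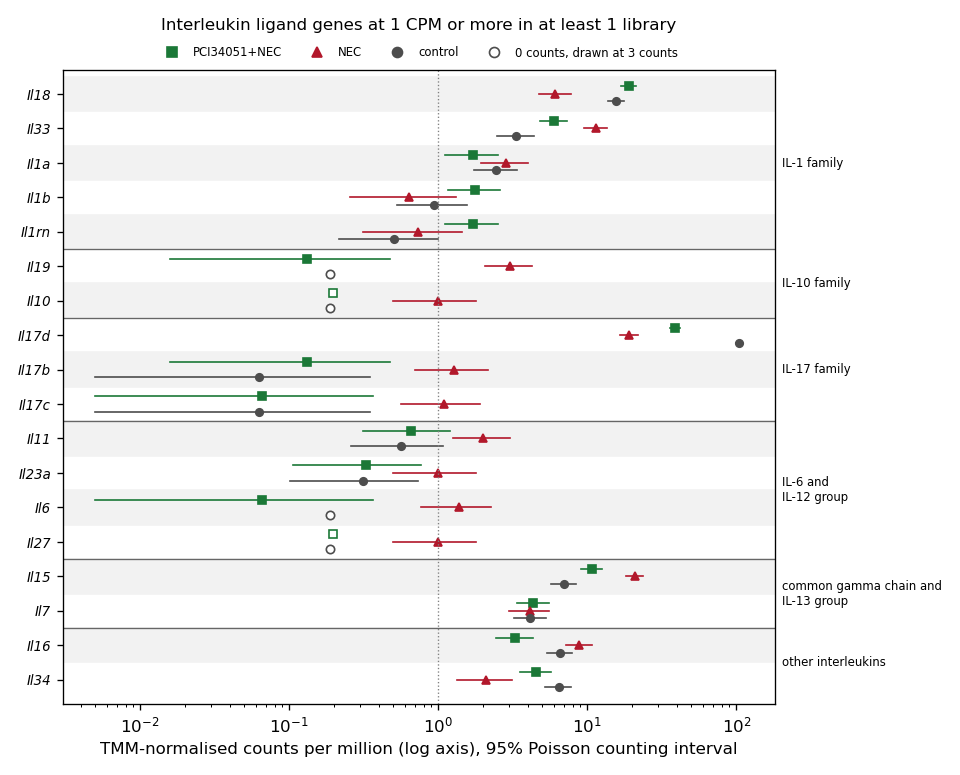
Levels of the 18 interleukin ligand genes at 1 CPM or more in at least 1 library, in TMM-normalised CPM on a log axis, grouped by family, with 95% Poisson counting intervals. Open symbols mark 0 counts, drawn at 3 counts. Il17d is highest in control at 105 CPM, and Il19 is at 3.01 CPM in NEC.

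Receptors of the IL-17 family separated by chain. Il17ra, the chain shared by the whole family, was at 38.6 CPM in PCI34051+NEC, 29.1 CPM in NEC and 29.8 CPM in control, within 2-fold throughout. Il17rc, its partner for IL-17A and IL-17F (ENSMUSG00000030281, chromosome 6, 113471427 to 113483140, plus strand), measured 11.2, 82.7 and 11.6 CPM in PCI34051+NEC, NEC and control. NEC was 7.15-fold above control (6.09 to 8.42), and PCI34051+NEC was 7.41-fold below NEC (6.28 to 8.78). Il17re, the IL-17C receptor chain, ends upstream of Il17rc on the same strand, at 113470758. It had 3, 36 and 31 counts, so its low library was PCI34051+NEC, 9.90-fold below control (3.09 to 50.6). Il17rd, a receptor-like inhibitor of fibroblast growth factor signalling, was at 10.3, 3.38 and 4.28 CPM, and PCI34051+NEC was 2.41-fold above control (1.80 to 3.25).

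Of the IL-10 family receptors, which serve IL-22 and IL-10 in the mucosa, Il22ra1 and Il10rb were lowest in NEC. Il22ra1, the epithelial IL-22 receptor chain (ENSMUSG00000037157, chromosome 4, 135728172 to 135752140, plus strand), measured 90.3 CPM in PCI34051+NEC, 18.3 CPM in NEC and 33.0 CPM in control. PCI34051+NEC was 4.94-fold above NEC (4.26 to 5.76) and 2.74-fold above control (2.47 to 3.03), the highest of the 3. Il10rb, the chain shared by the IL-10 and IL-22 receptors, was at 107, 38.6 and 142 CPM, and NEC was 3.67-fold below control (3.31 to 4.09). A read-through gene model, Gm21970, shares 30.8% of its exonic length. Il10ra, the leukocyte chain, was at 1.97, 2.19 and 5.91 CPM, and NEC was 2.70-fold below control (1.71 to 4.42). The 9 epithelial markers did not share 1 order: 4 were 2-fold or more lower in NEC than in control (Vil1, Cdx2, Cdh17 and Epcam) and Krt20 was higher. Their sums were 12344, 5169 and 8456 CPM in PCI34051+NEC, NEC and control, and their part in the Il22ra1 and Il10rb values was not tested. Il20rb, which pairs for IL-19 and IL-20, was highest in NEC, at 11.2, 22.1 and 7.17 CPM, with NEC 3.08-fold above control (2.46 to 3.88).

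Of the 9 IL-1 receptor family genes, 6 lie in 1 cluster on chromosome 1, from Il1r2 (start 40074079) through Il1r1, Il1rl2, Il1rl1 and Il18r1 to Il18rap (end 40551705), and neighbours differed in opposite directions. Il1r2, the decoy that binds IL-1 without signalling, had 97 counts in PCI34051+NEC, 41 in NEC and 6 in control, or 6.37, 3.74 and 0.378 CPM. PCI34051+NEC was 16.9-fold above control (7.48 to 47.1) and NEC 9.92-fold above it (4.19 to 28.6). Il1r2 is a known glucocorticoid-induced gene in leukocytes. The glucocorticoid response list had 9 of 10 genes 2-fold or more above control in PCI34051+NEC, where 6.55% of all genes were. It had 7 of 10 above control in NEC, where 24.2% of all genes were. Summed levels of the list were 8844, 3694 and 872 CPM, and its part in the Il1r2 values was not tested. The signalling receptor gene Il1r1 was instead highest in NEC, at 7.62, 25.6 and 10.6 CPM in PCI34051+NEC, NEC and control. Il1rl2, the IL-36 receptor, was at 2.69, 10.0 and 5.35 CPM.

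Il1rl1, which encodes the IL-33 receptor ST2, was lowest in NEC, at 3.74 CPM in PCI34051+NEC, 1.28 CPM in NEC and 8.12 CPM in control. NEC was 6.35-fold below control (3.65 to 11.9), whereas its ligand gene Il33 was above control there. Il18r1, the binding chain for IL-18, was at 58.2, 38.4 and 105 CPM, with NEC 2.73-fold below control (2.45 to 3.05). Its partner Il18rap was highest in NEC at 1.64, 5.02 and 1.38 CPM. The ligand Il18 and the chain Il18r1 were thus both lowest in NEC.

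Chains of the gp130 group were highest in NEC. Il6st, which encodes gp130, the signalling chain shared by IL-6, IL-11 and related cytokines (ENSMUSG00000021756, chromosome 13, 112464070 to 112510086, plus strand), measured 64.5 CPM in PCI34051+NEC, 222 CPM in NEC and 44.7 CPM in control. NEC was 4.97-fold above control (4.57 to 5.41), and PCI34051+NEC was 3.45-fold below NEC (3.20 to 3.71). Il6ra was at 12.3, 20.2 and 6.23 CPM, with NEC 3.24-fold above control (2.55 to 4.15). Il11ra1 was within 2-fold throughout, at 38.8, 73.0 and 52.0 CPM. Il31ra had 3, 23 and 1 counts, and Il27ra, found on lymphocytes, had 2, 39 and 28 counts, so that PCI34051+NEC was 13.4-fold below control (3.38 to 116). The smooth muscle list, summing to 1471, 11473 and 1539 CPM, and the fibroblast list of 6 genes, summing to 719, 2664 and 760 CPM, were also highest in NEC. No gene of either list was at 0, and their part in the gp130 group values was not tested.

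Of 7 measured chains of the common gamma chain group, 5 were lower by 2-fold or more in NEC than in control and 0 higher. That was 71.4% lower, against 22.9% of all genes. Il21r and Il7r passed the filter there through control only and had to be lower. The counting interval lay wholly beyond 2-fold below control for 1 of the 7, Il4ra. In PCI34051+NEC against control, 1 was higher and 2 were lower. The 2 lower genes, Il21r and Il2rg, passed through control only and had to be lower. Il4ra, the IL-4 and IL-13 receptor chain that epithelium also carries (ENSMUSG00000030748, chromosome 7, 125552120 to 125579474, plus strand), was the most counted member in PCI34051+NEC and control, and came after Il6st in NEC, at 266 CPM in PCI34051+NEC, 119 CPM in NEC and 310 CPM in control. NEC was 2.60-fold below control (2.44 to 2.76), and PCI34051+NEC was 2.23-fold above NEC (2.09 to 2.37). Il13ra1, its epithelial partner, was within 2-fold at 24.9, 27.3 and 29.9 CPM. Il2rg, the common gamma chain of lymphocytes, had 2, 11 and 51 counts, and PCI34051+NEC was 24.4-fold below control (6.42 to 207). The gene model Gm20489 shares 43.6% of the exonic length of Il2rg. Il21r, beside Il4ra on chromosome 7, had 2, 9 and 50 counts, and PCI34051+NEC was 23.9-fold below control (6.29 to 203). Il2rb, the IL-2 and IL-15 receptor chain, was also lower in NEC than in control but was highest in PCI34051+NEC, with 136, 11 and 53 counts. For this gene PCI34051+NEC was 8.89-fold above NEC (4.82 to 18.2) and 2.68-fold above control (1.94 to 3.75). Il7r had 18, 8 and 42 counts. Il3ra, of the common beta chain group, was at 12.8, 53.6 and 27.9 CPM, with PCI34051+NEC 4.18-fold below NEC (3.55 to 4.95).

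**Figure D4:**
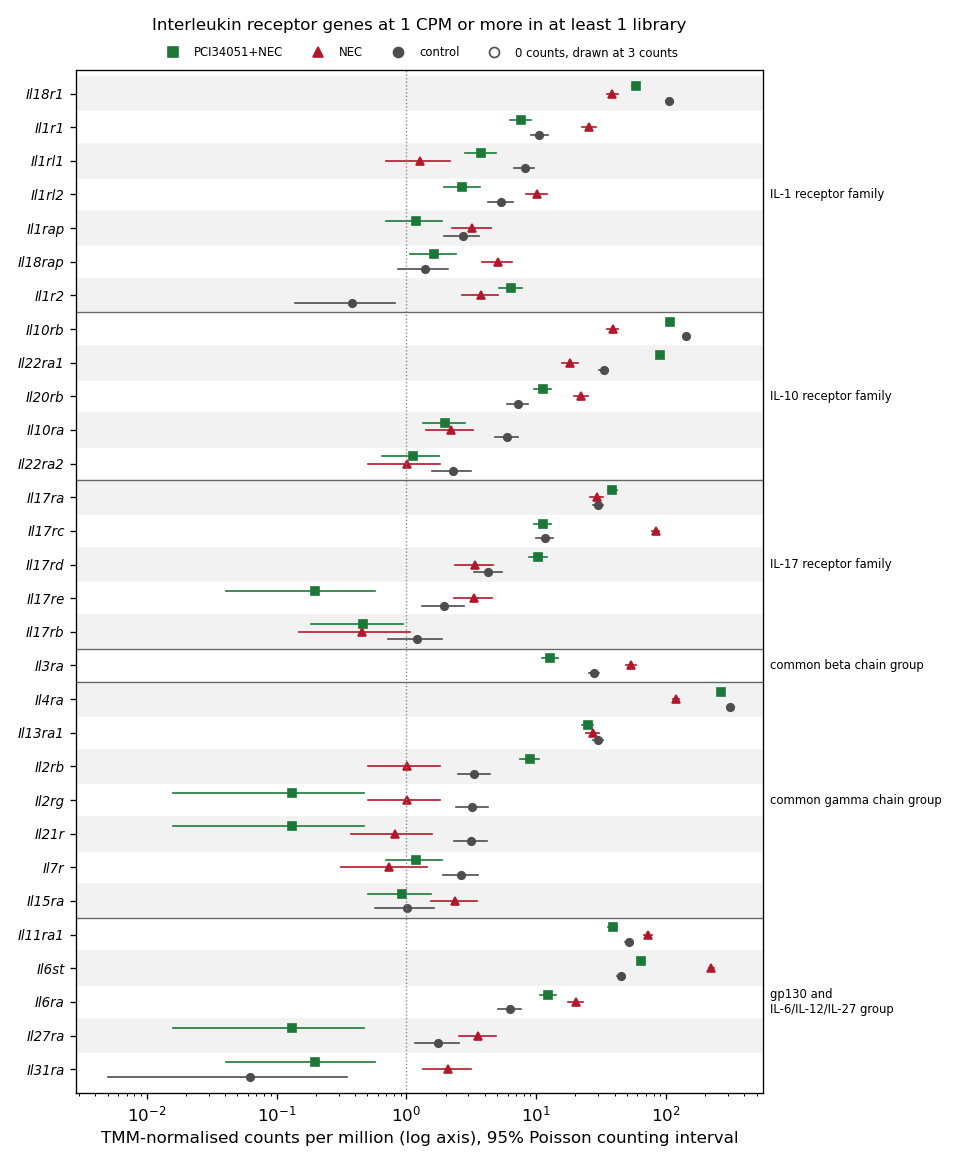
Levels of the 30 interleukin receptor genes at 1 CPM or more in at least 1 library, in TMM-normalised CPM on a log axis, grouped by family, with 95% Poisson counting intervals. Il17rc and Il6st stand highest in NEC at 82.7 and 222 CPM, while Il10rb and Il4ra stand lowest there at 38.6 and 119 CPM.

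Genes downstream of these receptors differed in both directions. In the JAK-STAT list of 23 genes, 2 were higher by 2-fold or more and 4 lower in NEC than in control, and 6 higher and 3 lower of 22 in PCI34051+NEC than in NEC. These were 26.1% and 40.9% of the measured genes, against 47.1% and 50.6% of all genes. In PCI34051+NEC against control, 1 was higher and 4 lower, 21.7% against 13.1% of all genes. Socs3, a feedback inhibitor of gp130 signalling, was at 59.7 CPM in PCI34051+NEC, 214 CPM in NEC and 52.5 CPM in control, with NEC 4.08-fold above control (3.77 to 4.42). Jak2, a kinase of many cytokine receptors, was at 121, 44.2 and 48.8 CPM. In the IL-1 and NF-kB list of 24 genes, 2 lay above and 5 below control by that measure in NEC. In PCI34051+NEC 6 were higher and 1 lower than in NEC, and 1 each way was apart from control. The shares 2-fold apart were 29.2% in NEC over control, 29.2% in PCI34051+NEC over NEC and 8.33% in PCI34051+NEC over control, below the shares of all genes. Tnfaip3, an inhibitor of NF-kB, was at 60.7, 11.4 and 17.2 CPM in PCI34051+NEC, NEC and control, and PCI34051+NEC was 3.52-fold above control (3.07 to 4.04). Tollip, an adaptor that restrains IL-1 receptor signals, was at 322, 83.7 and 214 CPM.

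The IL-17 pathway list of 6 genes had 5 measured, of which Cebpd alone was 2-fold apart in any comparison. Cebpd, a transcription factor of the acute phase response, was at 44.1 CPM in PCI34051+NEC, 118 CPM in NEC and 10.9 CPM in control. NEC was 10.8-fold above control (9.24 to 12.8) and PCI34051+NEC 4.05-fold above it (3.42 to 4.81). Of 10 inflammasome genes, 7 were measured. Casp4, the intracellular sensor of lipopolysaccharide, was the only one above control by 2-fold or more in NEC, at 70.1 and 25.2 CPM. That was 14.3% of the measured genes, against 24.2% of all genes. Casp4 was at 31.4 CPM in PCI34051+NEC. Gsdmd, the pore former of pyroptosis, was at 214, 99.8 and 194 CPM in PCI34051+NEC, NEC and control. None of the inflammasome genes was 2-fold apart between PCI34051+NEC and control, where 13.1% of all genes were. A list of 7 measured genes is too short to be set apart from that share.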

How the data were processed

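For each of the 3 libraries of total RNA the authors deposited raw counts of reads per gene, made from 150 bp paired-end reads per the labels' protocols, and the deposited table's name gives HTSeq as the counter. Positions refer to mm10, the build in the submitters' processing notes. Aligner, gene annotation and strand setting were not given in the sources used here. Genes with overlapping exons or near-identical copies may therefore share counts. Control and NEC columns were matched by name. The third column differs in its digits from the PCI34051+NEC sample's description and was assigned because no other sample names an inhibitor, and all PCI34051+NEC values depend on this.

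Scaling used TMM in edgeR 4.0.16 (R 4.3.3), with factors of 0.923 for PCI34051+NEC, 1.03 for NEC and 1.05 for control. The pseudocount was 1 CPM, which understates differences of low genes. Intervals are 95% exact conditional binomial (Clopper-Pearson) for ratios and exact Poisson for levels. They cover counting error only, because PCR copies cannot be told from separate molecules here. A count of 0 was given a floor of 3 counts, and folds against that floor leave out counting error in the other library. Intervals and 2-fold calls were tested on simulated data. Coordinates, exon lengths and overlaps came from GENCODE M21, which matched 118 of 118 members, and promoters from RefSeq. Named were members at 5 CPM or more in any library or with a ratio interval wholly beyond 2-fold, and of other lists up to 3 genes each way. Members under that line are named for detection or low levels, and Cxcr5 was chosen after its values were seen. Members and lists were chosen with earlier results of these data known. Plots and tables were made in Python 3.11.15 with matplotlib 3.10.9, scipy 1.17.1, pandas 2.3.3 and numpy 2.4.6. DESeq2 1.42.0 size factors served as an alternative. Values of some single genes of the marker and pathway lists are not reported here.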

Additional observations from a re-analysis of the deposited data

How the results depend on the processing

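Counts of members at least 2-fold apart stayed within 1.5 times of the reported count under DESeq2 size factors, total counts, TMM without mitochondrially encoded and the 50 most abundant genes, no filter, subtraction of GC and length trends (30 bins), and, for PCI34051+NEC over control, TMM without the NEC library. With a pseudocount of 4 CPM, NEC over control had 9 higher and 8 lower of 63, where 15.4% of all genes were higher and 17.0% lower. PCI34051+NEC over NEC then had 6 lower of 61, against 15.8% of all genes. All of these were smaller shares than those of all genes, whereas they were larger with 1 CPM. PCI34051+NEC over control had 3 higher and 3 lower of 54, against 4.70% and 2.56%. With 0.25 CPM, the last had 17 lower, against 9.41% of all genes. A minimum of 5 CPM left 10 higher of 32 in NEC over control and 9 lower of 31 in PCI34051+NEC over NEC. It left 5 lower of 33 in PCI34051+NEC over control. The shares of all genes were 22.9%, 23.9% and 5.45% in that order. At 1.5-fold, PCI34051+NEC over NEC had 16 higher and 32 lower and PCI34051+NEC over control 10 and 22. Counting intervals beyond 2-fold left 9 lower of 63 in NEC over control and 3 higher of 54 in PCI34051+NEC over control. Of all genes, 18.3% and 5.11% passed. Why these member counts changed was not tested. Members below 1 CPM in all 3 libraries numbered 53 to 56 over the scalings. Of 455 ratios of named members recomputed under other scalings, 15 left their counting interval, all by total counts, and none changed direction among called values. Total counts shifted the median log2 fold of all genes to -0.14 in PCI34051+NEC over NEC and -0.18 in PCI34051+NEC over control. No paired analysis was possible because the labels give 1 sample per group, and for the same reason no replicate could be left out. Members under about 20 counts are limited by depth.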
